A study of Canis lupus familiaris with 18 samples.

Results

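Mitogen-activated protein kinases (MAPKs) were examined in canine high grade oligodendroglioma (HGO), a glial brain tumor to which short-nosed dog breeds are prone. The 9 genes were taken by symbol from a table of 29993 genes: MAPK6, MAPK4, MAPK3, MAPK7, MAPK8, MAPK9, MAPK10, MAPK14 and MAPKAPK5. All 9 were listed once, and 8 of them passed the low count filter of edgeR. The exception was MAPK3. MAPK6 was chosen by its higher level in French bulldogs in these same counts, so its difference between breeds is given as a description without a test, while the other 8 genes were chosen by family.

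Total RNA was extracted from formalin-fixed, paraffin-embedded tumor that had been removed by surgery from pet dogs before any trial treatment, and ribosomal RNA was depleted before sequencing. There were 18 bulk libraries, of which 11 came from French bulldogs. The other 7 form the comparison group, with 4 libraries from boxers and 3 from Boston terriers. Every library is labelled as prosencephalic HGO, no normal brain was included, and age, sex and lobe are not given in the sample labels and were not used. The study describes its French bulldogs as younger on average, with a larger share of females and a different spread of tumor locations. Breed cannot be told apart from these here. Dogs of the comparison group keep the numbers of their labels, so that boxers are 1, 3, 4 and 5 and Boston terriers are 2, 6 and 7.

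MAPKs form the last tier of kinase cascades in which a MAP3 kinase activates a MAP2 kinase, which in turn phosphorylates the MAPK. The ERK branch carries growth factor and RAS signals, while the JNK and p38 branches respond mainly to stress and cytokines. MAPK6 and MAPK4 encode ERK3 and ERK4, the atypical members, which lack the usual pair of phosphorylation sites in the activation loop and are not switched on by the classical MAP2 kinases. ERK3 is a short-lived protein, and its best known partner is MK5, the product of MAPKAPK5. In glioma the RAS and ERK branch is often driven by receptor tyrosine kinases such as PDGFRA.

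The totals counted on genes ran from 8212452 to 13169880 per library, and a level of 3 counts, the smallest taken as detectable, corresponded to 0.223 to 0.351 CPM, the count scaled to the normalized library size. This limit covers counting error only. French bulldog 6 stood apart from the other 17 libraries. OLIG2 had 0 counts and SOX10 had 2 in that library, against at least 1137 and 1986 elsewhere, whereas its summed macrophage and microglia markers reached 6148 CPM against 63.4 to 324 in the other 17 libraries. The summed oligodendrocyte lineage markers were 177 CPM there against 2627 to 9115 elsewhere. Of the 10 genes of that list in the table, 9 had fewer counts than in any other library, among them PDGFRA with 406 (at least 2082 elsewhere) and CNP with 1092 (at least 1674), while MAG, with 16, lay within the range of the others. Of the 10 macrophage and microglia genes, 8 had more counts there than in any other library, while P2RY12, with 66, lay within the range of the others and CX3CR1, with 24, lay below it (at least 118), both known as microglial genes. Results are also given without this library. The library names of French bulldogs 2 and 8 carry the same case number. These libraries were nearest neighbors, although their counts differed by more than sampling noise (chi-square per degree of freedom 9.41, against at least 33.1 for every other pair of French bulldogs). They were kept as 2 libraries, and also summed as 1 dog. Beyond this, nothing in the labels shows that libraries were prepared from separate tissue samplings. The p-values below measure the spread between libraries.

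MAPK6 (ENSCAFG00000015640), which encodes ERK3, was present at a similar level in nearly every French bulldog. The lowest value was 67.9 normalized CPM in French bulldog 3, the median was 91.2 and the highest was 113 in French bulldog 8. In the boxers it stood at 46.4, 62.4, 76.5 and 47.3 CPM, and in the Boston terriers at 77.5, 72.1 and 57.7 CPM. French bulldog 3 was the only French bulldog within the range of the comparison group, and the other 10 lay above every comparison dog. Over all genes tested, 0.0788% had at least 10 of 11 French bulldogs above every comparison dog, and nothing is read from this because MAPK6 was picked for that contrast.

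The mean MAPK6 level was 89.7 ± 11.5 CPM (SD, n = 11) in French bulldogs, 69.1 ± 10.2 (SD, n = 3) in Boston terriers and 58.2 ± 14.3 (SD, n = 4) in boxers. On the log2 scale French bulldogs exceeded the comparison dogs by 0.51, a fold of 1.43. French bulldog 6, where the summed oligodendrocyte lineage markers were lowest, had 86.8 CPM of MAPK6 and lay inside the range of the other French bulldogs, and without it the log2 fold change was 0.55. With French bulldogs 2 and 8 summed as 1 dog it was 0.49. The library names of the comparison dogs carry S numbers 18 to 21 in 4 cases and 1 to 3 in the other 3. For MAPK6, French bulldogs exceeded the first set by 0.45 on the log2 scale and the second by 0.61. The labels do not say which libraries were sequenced together, so breed and sequencing set cannot be told apart.

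**Figure D1:**
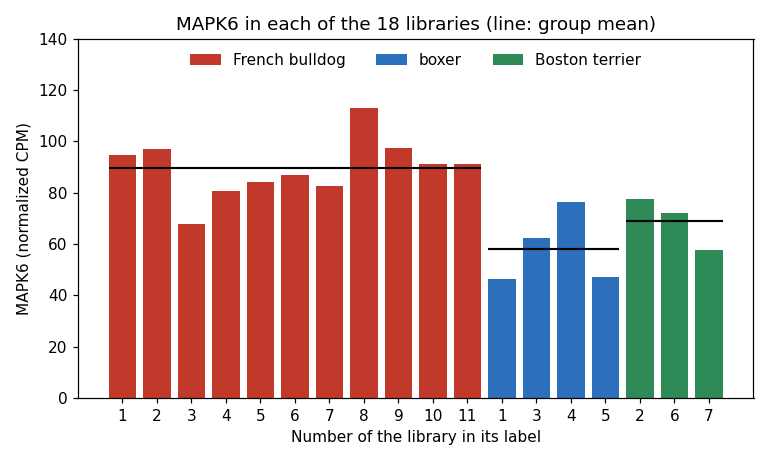
MAPK6 in normalized CPM (vertical axis, from 0) in each of the 18 libraries, named by the number in its label (horizontal axis) and colored by breed, with a line at each breed's mean. The highest comparison dog stood at 77.5 CPM, with 10 French bulldogs above it, and French bulldog 3 stood at 67.9 CPM.

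Boxers and Boston terriers were compared in a contrast that had no part in choosing MAPK6. Boxers had less MAPK6 than Boston terriers by 0.25 on the log2 scale (log2 fold change -0.25, 95% interval -0.69 to 0.19, edgeR quasi-likelihood test, adjusted p = 1). The ranges of the breeds overlapped, since boxer 4 lay above 2 of the Boston terriers. Of the 8 members tested, 0 had an adjusted p under 0.05 and 0 had an unadjusted p under 0.05 in this contrast. The background over 17934 genes was 0% by the adjusted p and 2.12% by the unadjusted p. The same counts of 0 were obtained with DESeq2 and limma-voom. With 4 and 3 dogs the 95% intervals were wide. That of MAPKAPK5 ran from -0.46 to 0.39 on the log2 scale and that of MAPK4 from -2.25 to 2.29.

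Of the 7 members other than MAPK6 that were tested between French bulldogs and the comparison group, 0 had an adjusted p under 0.05 (edgeR quasi-likelihood test with Benjamini-Hochberg adjustment over 16495 genes), and 0 had an unadjusted p under 0.05. Over all genes tested, 0.00606% had an adjusted p and 10.6% an unadjusted p under 0.05. The DESeq2 Wald test and limma-voom gave 0 of these members as well. Their log2 fold changes were 0.30 for MAPK14, 0.034 for MAPKAPK5, 0.031 for MAPK9, -0.033 for MAPK7, -0.052 for MAPK8, -0.26 for MAPK10 and -0.81 for MAPK4. The median over all genes tested was 0.035. With limma-voom the log2 fold change was -1.59 for MAPK4 and -1.07 for MAPK10.

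**Figure D2:**
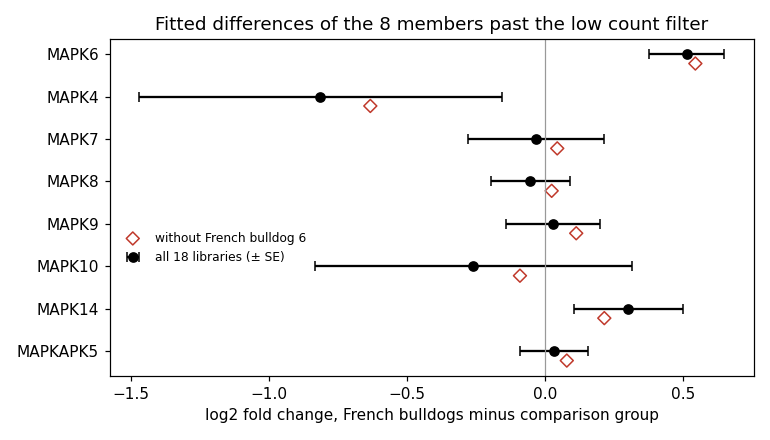
Log2 fold change of French bulldogs against the comparison group (horizontal axis) for the 8 members past the low count filter (rows), with all 18 libraries (filled points, bars are standard errors) and without French bulldog 6 (open diamonds). MAPK6, at 0.51, is shown as a description because it was chosen on this contrast, and nothing is read from its bar. MAPK4 and MAPK10 had the widest errors, 0.66 and 0.57.

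MAPK4 (ENSCAFG00000013287) encodes ERK4, the close relative of ERK3. It went from 0.208 to 76.8 CPM in French bulldogs, with a median of 25.5. In the boxers it was 39.0, 90.3, 23.7 and 57.0 CPM, and in the Boston terriers 85.0, 48.4 and 21.7 CPM. The lowest values belonged to French bulldog 6, with 2 counts, and to the libraries of the shared case, French bulldog 2 with 19 counts and French bulldog 8 with 35. With French bulldog 4, at 16.6 CPM, 4 French bulldogs lay below every comparison dog and none lay above. The means were 29.7 ± 24.5 (SD, n = 11) and 52.1 ± 27.3 CPM (SD, n = 7), and the log2 fold change of -0.81 had a 95% interval of -2.19 to 0.56 (adjusted p = 0.666, edgeR quasi-likelihood test). It was -0.63 without French bulldog 6. MAPK6 showed no such gap in these 3 libraries, where it stood at 86.8, 97.1 and 113 CPM.

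MAPKAPK5 (ENSCAFG00000008745), the kinase MK5 that ERK3 and ERK4 bind, had the smallest dispersion of the 8 members tested. It ran from 19.4 to 31.0 CPM in French bulldogs, with a median of 24.8, and from 19.5 to 26.7 CPM among comparison dogs. The means were 25.4 ± 3.55 CPM (SD, n = 11) and 24.8 ± 2.54 (SD, n = 7), with a log2 fold change of 0.034 and a 95% interval of -0.22 to 0.29 (adjusted p = 0.950, edgeR quasi-likelihood test). The groups overlapped, with 5 French bulldogs above every comparison dog and 1 below. Of the 16495 genes tested, 0.8% had a smaller dispersion between libraries than MAPKAPK5, and 2.0% had a smaller one than MAPK6. Dispersion is the variation between dogs beyond counting error, and it tends to be lower for genes with more counts.

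The conventional ERK kinases were represented by MAPK3, which encodes ERK1, and by MAPK7, which encodes ERK5, a kinase with a long C-terminal tail. MAPK3 (ENSCAFG00000017108) reached at most 9 counts in a French bulldog and at most 13 in a comparison dog, or 0.430 ± 0.240 CPM (SD, n = 11) and 0.503 ± 0.385 (SD, n = 7). These levels are close to the limit of 3 counts and were too low for the test. ERK1 is made in most tissues, and whether the counts of this gene model reflect the transcript was not tested. MAPK7 (ENSCAFG00000018202) ran from 6.41 to 16.4 CPM in French bulldogs, with a median of 13.3, and from 4.86 to 16.1 among comparison dogs. Its log2 fold change was -0.033 (95% interval -0.55 to 0.48, adjusted p = 0.978, edgeR quasi-likelihood test), and it turned to 0.045 without French bulldog 6.

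The JNK kinases are encoded by MAPK8, MAPK9 and MAPK10, of which MAPK10 (JNK3) is known for its restriction largely to neurons while the other 2 are widely expressed. MAPK8 (ENSCAFG00000006551, JNK1) was held in a narrow band among comparison dogs, from 101 to 114 CPM, and ranged from 63.4 CPM in French bulldog 6 to 141 in French bulldog 5. Of the French bulldogs, 7 were below that band, 3 above and 1 within it. The means were 102 ± 22.8 CPM (SD, n = 11) and 106 ± 4.57 (SD, n = 7), and the 95% interval of the log2 fold change was -0.35 to 0.25 (adjusted p = 0.929, edgeR quasi-likelihood test). The difference in spread was not tested.

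MAPK9 (ENSCAFG00000000395, JNK2) ran from 40.5 CPM in French bulldog 6 to 91.1 in French bulldog 10, with a median of 63.4. It was 46.0 to 90.9 CPM among comparison dogs, so the ranges nearly coincided. The means were 66.4 ± 15.0 (SD, n = 11) and 65.0 ± 15.4 CPM (SD, n = 7), and the 95% interval of the log2 fold change was -0.32 to 0.39 (adjusted p = 0.972, edgeR quasi-likelihood test).

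MAPK10 (ENSCAFG00000009396) varied most within the JNK genes. French bulldog 6 had 1 count of it, the other French bulldogs had 39.5 CPM in French bulldog 11 to 187 in French bulldog 7, and the median of all 11 was 81.9. In the boxers it was 109, 104, 126 and 84.0 CPM, and in the Boston terriers 105, 135 and 54.6 CPM. French bulldogs lay on both sides of the comparison group, 4 below it and 2 above. The log2 fold change was -0.26 (95% interval -1.46 to 0.94, adjusted p = 0.911, edgeR quasi-likelihood test), and it ran from -0.44 without French bulldog 7 to -0.09 without French bulldog 6. Dispersion was smaller than that of MAPK10 in 84.7% of the genes tested and smaller than that of MAPK4 in 89.7%.

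MAPK14 (ENSCAFG00000001378) encodes p38 alpha, a kinase of stress and inflammatory signaling that is abundant in myeloid cells. It was 43.4 CPM in French bulldog 5 at the lowest, 58.6 at the median and 109 in French bulldog 6 at the highest. In the boxers it was 64.7, 54.5, 37.8 and 54.7 CPM, and in the Boston terriers 41.5, 59.1 and 33.9 CPM. The 3 French bulldogs above every comparison dog were French bulldog 6, French bulldog 2 with 81.0 CPM and French bulldog 8 with 70.8. The means were 61.0 ± 19.6 (SD, n = 11) and 49.4 ± 11.7 CPM (SD, n = 7), a log2 fold change of 0.30 with a 95% interval of -0.11 to 0.72 (adjusted p = 0.584, edgeR quasi-likelihood test). Without French bulldog 6 it was 0.22. The high level of MAPK14 in French bulldog 6 coincided with the 6148 CPM of macrophage and microglia markers, but French bulldogs 2 and 8 had only 66.5 and 79.1 CPM of these markers. The median log2 fold change of the 10 macrophage and microglia genes was 1.81 with all libraries and 0.12 without French bulldog 6, and 0 of the 10 had an adjusted p under 0.05 in either (edgeR quasi-likelihood test). By the unadjusted p there were 5 and 0, beside 10.6% and 10.8% of all genes tested. The part of these cells in the level of MAPK14 was not tested.

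**Figure D3:**
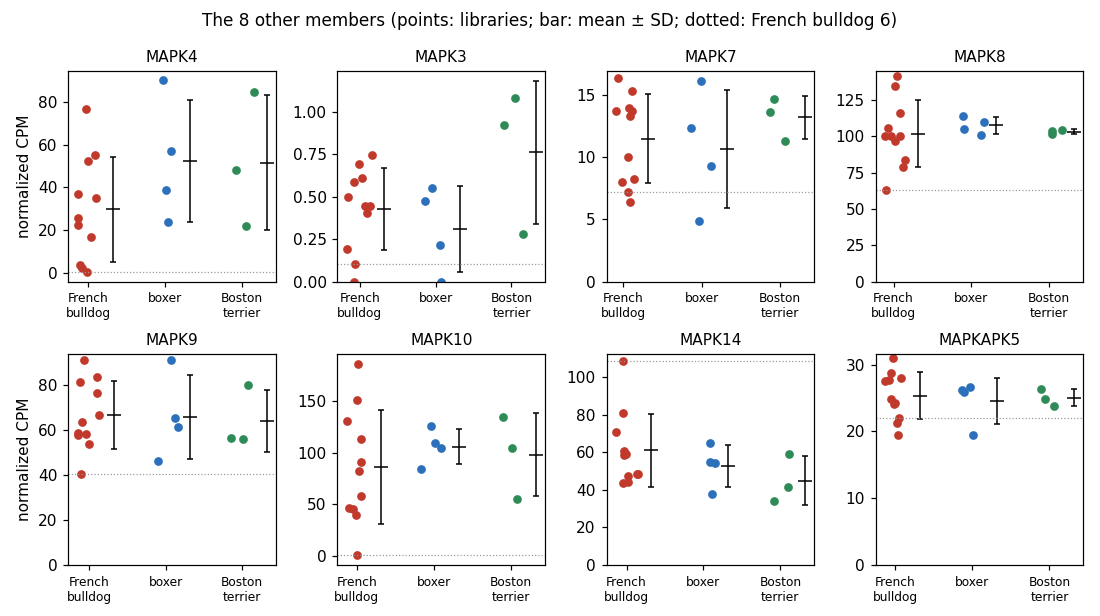
Normalized CPM (vertical axes) of the 8 members other than MAPK6 by breed (horizontal axes), with a point for each library, the mean ± SD beside each breed and a dotted line at the level of French bulldog 6. That library was the lowest for MAPK4, MAPK8, MAPK9 and MAPK10 and the highest for MAPK14.

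The members were next set against summed marker genes of the cell types that a brain tumor sample can hold, a comparison chosen after the data were seen. French bulldogs 2 and 8 were summed and French bulldog 6 was left out, which gave 16 dogs, and 8 members were related to 6 marker lists, 48 relations in all. A further list, of T cell markers, was not used. In bulk tissue, fewer cells of a type and less RNA per cell cannot be told apart. MAPK10 rose with the neuron list, which holds genes such as SNAP25, SYT1 and NEFL, with Spearman's rho = 0.93 and Pearson's r = 0.92 on log2 values (permutation test, two-sided, adjusted p = 0.00048 for each, which rests on the smallest p that the permutations can give). Without the 2 dogs farthest from the median of the neuron list, r was 0.90. Within French bulldogs rho was 0.97 and withamong comparison dogs 0.79. French bulldogs 7 and 9, with the most MAPK10, had 1268 and 1393 CPM of summed neuron markers, and French bulldog 11 had 66.7.

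MAPK4 fell as the proliferation list rose, a list that holds MKI67, TOP2A, CDK1, BUB1 and AURKB in these counts. Spearman's rho was -0.73 (adjusted p = 0.0422) and Pearson's r was -0.80 (adjusted p = 0.00672), both by permutation and two-sided over the same 16 dogs, and r was -0.70 without the 2 dogs farthest from the median of the list. Within French bulldogs rho was -0.93, and withamong comparison dogs it was -0.46. Between groups, all 5 proliferation genes had a positive log2 fold change in French bulldogs, with 0 under 0.05 by the adjusted p and 3 by the unadjusted p, or 1 without French bulldog 6 (edgeR quasi-likelihood test), beside 10.6% of all genes by the unadjusted p and 53.7% with a positive sign. The 3 highest sums were those of French bulldogs 8, 6 and 2, of which 2 and 8 share a case number. French bulldogs 2 and 8 had 956 and 1055 CPM of summed proliferation markers and 2.12 and 3.56 CPM of MAPK4. In French bulldog 9, where the markers were lowest at 59.1 CPM, MAPK4 was 55.2 CPM. The astrocyte list also moved with MAPK4 by Pearson's r (0.70, permutation adjusted p = 0.0499), but rho was 0.57 (permutation adjusted p = 0.151), and r dropped to 0.34 without the 2 dogs farthest from the median. French bulldogs 2 and 8 had the lowest astrocyte sums of these dogs, 353 and 450 CPM, so proliferation markers were high and astrocyte markers low in the same libraries, and their parts in the level of MAPK4 were not told apart.

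No other relation of the 7 members besides MAPK6 had an adjusted p of rho under 0.05. For MAPK6, whose level differs between the pooled groups by the way it was chosen, no test is drawn from these. Within French bulldogs its rho with the oligodendrocyte lineage list was 0.52 (n = 9) and within comparison dogs 0.32 (n = 7), given as a description. The relation of MAPK14 with the macrophage and microglia list was negative without French bulldog 6 (rho = -0.48, permutation test, adjusted p = 0.257), and r went from -0.41 to -0.051 without the 2 dogs farthest from the median of the list.

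**Figure D4:**
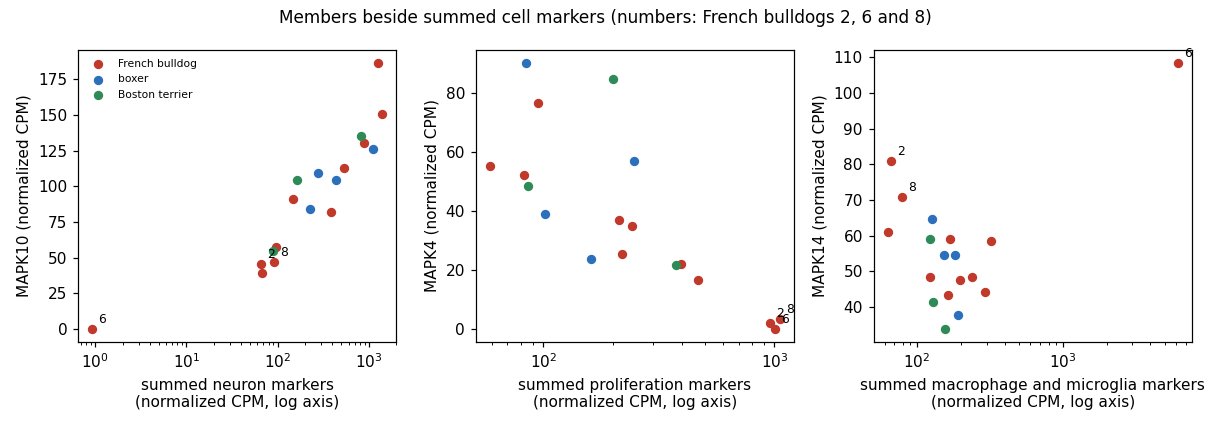
Normalized CPM of MAPK10, MAPK4 and MAPK14 (vertical axes) in the 18 libraries against the summed normalized CPM of neuron, proliferation, and macrophage and microglia markers (horizontal log axes), colored by breed, with French bulldogs 2, 6 and 8 numbered. MAPK10 climbed with neuron markers from 0.104 CPM in French bulldog 6 to 187 CPM, MAPK4 declined as proliferation markers rose, and MAPK14 was highest in the macrophage-rich French bulldog 6.

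Whether MAPK6 varied with the other members was examined within each group, so that the contrast on which MAPK6 was chosen played no part. The comparison dogs still pool boxers and Boston terriers. Among the 16 relations, 8 in 10 French bulldogs with libraries 2 and 8 summed and 8 in the 7 comparison dogs, 0 had an adjusted p under 0.05 and 1 had an unadjusted p under 0.05. That relation was with MAPKAPK5 among comparison dogs, where MAPK6 was higher in dogs with less MAPKAPK5 (rho = -0.86, exact permutation p = 0.0238, adjusted p = 0.381, and r = -0.69, exact p = 0.0470, adjusted p = 0.690). Without the 2 dogs farthest from the median of MAPK6 r was -0.71, and with scaling to library size only rho was -0.50. In French bulldogs the same pair had rho = 0.42 (permutation p = 0.234, adjusted p = 0.882). The largest rho in French bulldogs was with MAPK9 (rho = 0.59, permutation p = 0.0800, adjusted p = 0.640). With scaling to library size only it was 0.81 (permutation p = 0.00693, adjusted p = 0.111), and r was 0.82 (permutation p = 0.00441, adjusted p = 0.0706). With MAPK4, the paralog of MAPK6, rho was -0.07 in French bulldogs and 0.21 among comparison dogs.

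The genes whose levels most resembled those of MAPK6 over the 18 libraries were NHEJ1 (rho = 0.88), a factor of DNA end joining, PPP1R7 (rho = 0.87), a regulatory subunit of protein phosphatase, SNAPC1 (rho = 0.86), a subunit of the complex that transcribes small nuclear RNA genes, EEA1 (rho = 0.85), an early endosome tether, and STAU1 (rho = 0.85), a protein that binds double-stranded RNA. These values describe the libraries, which share depth and breed, and carry no test. Withamong comparison dogs, rho was 0.11 for NHEJ1 and 0.86 for SNAPC1 and STAU1. Among the 7 other members past the filter, the highest was 0.38 for MAPK9 and the lowest -0.36 for MAPK4.

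Genes beside MAPK6 on chromosome 30 in RefSeq's UU_Cfam_GSD_1.0 annotation, a build other than that of these counts, were listed for context. LEO1, the nearest one before it, had 45.0 ± 5.47 CPM (SD, n = 11) over the French bulldogs, against 45.0 ± 7.53 (SD, n = 7) among comparison dogs, a difference of 0.00 on the log2 scale (SE 0.12, adjusted p = 1.00, edgeR quasi-likelihood test). On the other side, GNB5 had a log2 fold change of -0.16, with no French bulldog above every comparison dog. TMOD2, LYSMD2 and MYO5A had log2 fold changes of 0.09 to 0.13. For FAM214A, the sixth of these neighbors, the log2 fold change was -0.38 (unadjusted p = 0.0303, adjusted p = 0.439, edgeR quasi-likelihood test). All 6 had an adjusted p above 0.05.

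The rest of the pathway was followed through 9 lists, from the RAS switch to the output genes, which held 109 genes. Of these, 96 were listed and 93 tested, and 0 had an adjusted p under 0.05 between French bulldogs and the comparison group. By the unadjusted p, 6 of the 93 (6.45%) were under 0.05, 4 higher and 2 lower in French bulldogs, against 10.6% of all genes tested. Without French bulldog 6 there were 7. The median log2 fold change was 0.09, against 0.035 over all genes tested.

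Upstream, SOS2, a RAS exchange factor, had a log2 fold change of 0.35 (adjusted p = 0.462, edgeR quasi-likelihood test), and MAPK8IP3, a JNK scaffold, had -0.53 (adjusted p = 0.516). Of the 22 MAP3 kinases tested, 11 had a positive and 11 a negative log2 fold change, beside 53.7% positive over all genes tested. Against 10.6% of all genes, 1 of the 22 had an unadjusted p under 0.05. This was TAOK2, with a log2 fold change of -0.36 (adjusted p = 0.433). MAP3K5, which feeds JNK and p38, stood at 0.59. The 7 MAP2 kinases lay between -0.26 for MAP2K7, an activator of JNK, and 0.20 for MAP2K1, an activator of the ERK branch.

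The list of ERK3 and MK5 partners had 9 genes tested, 5 with a positive and 4 with a negative log2 fold change. Over all genes tested, 53.7% were positive. KALRN, a guanine nucleotide exchange factor of neurons, had 215 ± 117 CPM (SD, n = 11) over the French bulldogs, against 441 ± 147 (SD, n = 7) among comparison dogs, a log2 fold change of -1.03 (unadjusted p = 0.0224, adjusted p = 0.433). It was 10.9 CPM in French bulldog 6, and the log2 fold change was -0.88 without that library (unadjusted p = 0.00414, edgeR quasi-likelihood test). There too, 0 genes of the list had an adjusted p under 0.05. NCOA3, a transcriptional coactivator that ERK3 can phosphorylate, had a log2 fold change of 0.55 (adjusted p = 0.446), with 208 CPM in French bulldog 6 and 0.36 without it. PAK2, a kinase that can phosphorylate the ERK3 activation loop, stood at 0.40 (adjusted p = 0.483).

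Among the other MAPKs, NLK had a log2 fold change of -0.18 and MAPK12, which encodes p38 gamma, -0.66 with a standard error of 0.72. Without boxer 1 that of MAPK12 was -0.11, and without boxer 4 that of NLK was -0.089. MAPK13, which encodes p38 delta, was low and scattered, from 0.820 to 21.1 CPM over the French bulldogs, and from 1.33 to 9.53 among comparison dogs, and MAPK15 had at most 32 counts in any library. Of the 7 other MAPK-activated kinases tested, 5 had a positive log2 fold change (median 0.28), beside 53.7% of all genes tested. Without French bulldog 6 there were 3 (median -0.018), beside 55.4% of all genes. The first by p-value was RPS6KA1, at 1.26 with all libraries and 0.16 without French bulldog 6 (unadjusted p = 0.107 and 0.737, edgeR quasi-likelihood test). RPS6KA5 stood at 0.28, and at 0.29 without French bulldog 6. MKNK1 stood at 0.30, and at 0.11 without it.

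The phosphatases and output genes gave no gene with an adjusted p under 0.05. Of the 8 MAPK phosphatases tested, 5 had a positive log2 fold change, beside 53.7% of all genes tested. The 3 named by p-value were DUSP5 at 1.17, DUSP10 at 0.62 and DUSP16 at 0.57, while DUSP9, the lowest of the list, had -0.82. DUSP5 had 0.75 without French bulldog 11. The median of the 8 was 0.55, and 0.089 without French bulldog 6. In the list of ERK output genes, DUSP6 stood at -0.40 (-0.22 without Boston terrier 7), SPRED1 at 0.21 and CCND1, a cyclin of the G1 phase, at 1.87 (unadjusted p = 0.0253, adjusted p = 0.433). For CCND1 the value of French bulldog 1, 1112 CPM, was far above the 185 CPM of the next library, and without French bulldog 1 the log2 fold change was 0.69 (unadjusted p = 0.147, edgeR quasi-likelihood test). The lowest French bulldog, number 9, had 10.0 CPM, so French bulldogs lay on both sides of the comparison dogs, which ran from 32.4 to 76.2 CPM. All 12 immediate early and AP-1 genes tested had a positive log2 fold change, with 0.84 for ATF3, 0.44 for JUN and 1.22 for FOS, whereas 53.7% of all genes tested did. None of the 12 had an unadjusted p under 0.05 (edgeR quasi-likelihood test). Their median was 0.46, and it was 0.35 without French bulldog 6. The shared sign rested on French bulldog 11, without which 7 of the 12 were positive and the median was 0.099. That library had 699 CPM of FOS, against 154 CPM in the next, and without it the log2 fold change was -0.17 for FOS, 0.21 for JUN and 0.53 for ATF3.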

How the data were processed

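Per the labels and the methods of the study, the authors extracted RNA from fixed tumor, made stranded total RNA libraries, trimmed the paired-end reads (Trimmomatic 0.33), mapped them to the dog genome canFam6 (HISAT2 2.1.0) and deposited raw featureCounts counts per gene, without normalization. Strand and multi-mapping settings are not given in the sources used here, so reads shared with pseudogenes or antisense genes cannot be told apart. The 18 columns were matched to samples by library name.

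Counts were fitted with edgeR 4.0.16 (R 4.3.3) by the quasi-likelihood F test, with filterByExpr, TMM, robust dispersions, two-sided p-values, Benjamini-Hochberg adjustment over all genes tested and a threshold of 0.05. Normalized CPM use TMM library sizes. The standard error is the size of the log2 fold change over the square root of F. Boxers and Boston terriers were compared in a model with 3 breeds. Correlations used log2 CPM with 0.5 counts added, 100000 permutations, or all orders of 7 dogs. Alternatives included DESeq2 1.42.0 and limma 3.58.1. Code was tested on simulated data. Names were the 9 members, the first 3 genes by p-value in each pathway list (some are not reported here), the 5 genes most like MAPK6 and its neighbors. Members and lists were chosen with earlier results of these counts known. The relations with cell markers and the pathway values with a library left out were added after the data were seen. Single values of CCND1, FOS, DUSP9 and the marker examples were chosen after they were seen. No sequence is given here.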

Additional observations from a re-analysis of the deposited data

Results flagged for a closer look

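MAPKAPK5 in boxer 4, at 19.5 normalized CPM, was far below the other dogs of its group. Its gap to the nearest dog was 0.885 of the range of the 4 boxers (critical value 0.829) and 0.601 of the range of the 7 comparison dogs (critical value 0.568). The 18 groups of values examined were the boxers and the comparison dogs, which include those boxers, for each of 9 members. The 2 marks are therefore the same value in overlapping groups, and chance alone marks about 1 in 20. The other 3 boxers lay between 25.9 and 26.7 CPM, and French bulldog 7 had 19.4 CPM as well. Boxer 4 also had the lowest MAPK7 of all 18 libraries, 4.86 CPM, and the highest MAPK9 of the comparison group, 90.9 CPM.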

How the results depend on the processing

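MAPK6 was chosen for its higher level in French bulldogs in these same counts, so nothing is read from its sign holding. Across 31 alternatives the log2 fold change of MAPK6 stayed positive, from 0.45 to 0.59 when each library was left out and from 0.39 (Boston terriers only) to 0.63 (boxers only) otherwise. The count of other members with an adjusted or unadjusted p under 0.05 stayed at 0 in all of these, and in 26 alternatives for boxers against Boston terriers. Signs near 0 did turn. With library size only, which shifted the median of all genes by -0.10, MAPK9 and MAPKAPK5 were -0.051 and -0.061. Against libraries S18 to S21 MAPK7 was 0.19 and MAPK9 -0.037, against S1 to S3 MAPKAPK5 was -0.029, and against boxers only MAPK7 was 0.11. When each library was left out, MAPK7 ran from -0.15 to 0.059, MAPK8 from -0.11 to 0.025, MAPK9 from -0.037 to 0.16 and MAPKAPK5 from 0.0020 to 0.080. Between boxers and Boston terriers, MAPK4 ran from -0.38 to 0.58, MAPK9 from -0.18 to 0.22, MAPK10 from -0.18 to 0.40 and MAPKAPK5 from -0.076 to 0.042. With limma-voom, French bulldogs against the comparison group gave -1.59 for MAPK4 and -1.07 for MAPK10. Over the alternatives that did not leave out single libraries, MAPK4 ran from -1.59 to -0.48 in that contrast. MAPK10 ran from -1.07 to -0.064 and MAPK14 from 0.17 to 0.46. The causes were not tested. MAPK4 and MAPK10 have no value with a minimum of 10 counts in every library.

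Library numbers are shared between groups by label only. With a replicate block over numbers 1 to 7, MAPK6 was 0.45, MAPK7 0.16, MAPK9 -0.050, MAPKAPK5 -0.046 and MAPK4 -1.59. Same-numbered libraries did not deviate together as a rule, with 2 of 7 correlations over 0.1 (range -0.50 to 0.20) and 2 of 7 French bulldogs closest to their own number. No relation of MAPK6 with another member passed the adjusted threshold in any of 3 alternatives in r or rho. Of the relations with cell markers, 2 passed by rho with or without French bulldog 6, whereas by r 3 passed without it and 7 with it.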
